A study of Strigamia maritima with 9 samples.

Results

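The regions described here are stretches of *Strigamia maritima* DNA at which a peak was called for at least 1 of 3 CopiaMBD domains on amplified DNA and for none of the 3 on native DNA. They were found by pooling the 3 amplified-DNA peak lists, merging peaks that overlapped by at least 1 bp, and keeping the merged regions that overlapped no native-DNA peak of any domain. Of 626 merged amplified-DNA regions, 507 (81%, exact 95% interval 77.7 to 84.0) met this rule. They are called amplified-only regions below. They held 531 of the 660 amplified-DNA peaks and covered 80.6 of the 99.4 kb in amplified-DNA regions. Because the absence of a native peak defines them, the share of 81% and the distances to native peaks below describe the choice and are not tests of it.

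A methyl-CpG binding domain is a protein fold that recognises methylated cytosine in the sequence CpG, and the CopiaMBD domains are copies of this fold carried by a family of Copia elements, a class of retrotransposon that moves through an RNA copy flanked by long terminal repeats. DNA affinity purification sequencing (DAP-seq) maps where such a protein, made outside the cell, captures fragments of purified genomic DNA. In the amplified variant (ampDAP-seq) the DNA is first copied by PCR, which reproduces its sequence but not its methyl groups. A peak on amplified DNA therefore marks fragments captured from a template that should carry no methylation, although the methylation of these templates was not measured.

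*Strigamia maritima* is a centipede, and all libraries came from adult tissue of the strain whose genome was sequenced, with DNA sonicated to a mean length of 200 bp. The 3 amplified-DNA libraries (labelled CopiaMBD1_ampDAPseq, CopiaMBD2_ampDAPseq and CopiaMBD3_ampDAPseq) went through 11 PCR cycles before binding to an in vitro translated domain fused to the HaloTag, a protein tag that couples to beads, and 20 cycles after it. The 3 native-DNA libraries had 20 cycles after binding and 0 before it, and each kind of DNA had 1 library with the HaloTag alone (pIX_Halo_empty) as its control. Each group held 1 library, so no value below has a replicate and none carries a p-value across samples. Intervals on shares and densities cover counting error only. The labels name neither the number of animals nor whether the libraries drew on separate extractions.

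The amplified-DNA peaks rested on 3685424, 3685424 and 3488873 tags after down-sampling for CopiaMBD1, CopiaMBD2 and CopiaMBD3, and the native-DNA peaks on 2239324, 2224965 and 2044955. A native site therefore had to pass its threshold with fewer tags than an amplified-DNA site, and a region without a native peak is one where none was called at that depth. The redundant fraction of tags was 0.08 in the CopiaMBD1 library on amplified DNA, 0.05 in each of the other two, and 0.11 in their shared HaloTag-only control. The 3 amplified-DNA lists share that control, so its local level at a position enters the fold of every domain at once.

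CopiaMBD1, which had the longest amplified-DNA list, also had the most amplified-only regions. CopiaMBD1 alone accounted for 295 of the 507 regions, CopiaMBD3 alone for 99 and CopiaMBD2 alone for 89. A further 24 regions were called for a pair of domains and 0 for all 3, for which a floor of 3 counts is 0.592% of the 507 and the exact upper limit 0.725%. Expressed per list, 315 of 358 CopiaMBD1 peaks (88.0%, 84.2 to 91.2), 100 of 133 CopiaMBD2 peaks (75.2%, 67.0 to 82.3) and 116 of 169 CopiaMBD3 peaks (68.6%, 61.1 to 75.5) lay in amplified-only regions. The CopiaMBD1 interval did not overlap the others, while those of CopiaMBD2 and CopiaMBD3 overlapped. Each interval counts peaks of 1 library and depends on list length, so it does not set the domains apart. When each list was limited to its 133 strongest peaks by q-value, the shares were 87.2, 75.2 and 69.9%, in the same order. The counts of amplified-only peaks were then closer, 116, 100 and 93 in 302 regions. Intervals were not computed at this list length.

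**Figure D1:**
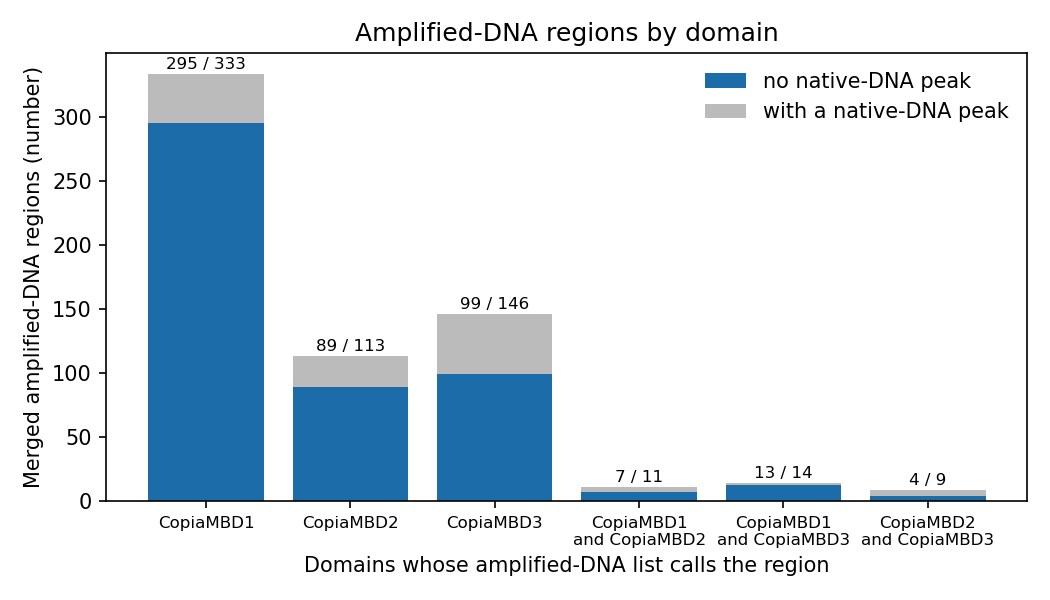
Number of merged amplified-DNA regions (y axis) by the domain or pair of domains whose list calls them (x axis), with the part lacking a native-DNA peak in blue and the part with one in grey. The label above each bar gives amplified-only regions over all regions, from 295 of 333 for CopiaMBD1 alone to 4 of 9 for CopiaMBD2 with CopiaMBD3.

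The remaining 119 amplified-DNA regions touched a native peak, and 47 of them touched native peaks of all 3 domains. Native peaks of CopiaMBD2 and CopiaMBD3 together were found at 25, of CopiaMBD3 alone at 15, of CopiaMBD2 alone at 14, of CopiaMBD1 and CopiaMBD2 at 10, of CopiaMBD1 and CopiaMBD3 at 6, and of CopiaMBD1 alone at 2. Removing the CopiaMBD1 native list thus returned only those 2 regions to the amplified-only set, whereas removing the CopiaMBD2 or the CopiaMBD3 native list returned 14 and 15.

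At the edge of the rule, the folds of the 3 nearest regions on either side overlapped, from 2.39 to 3.81 inside it and from 2.88 to 4.34 outside. Their −log10 q-values ran from 1.44 to 3.87 inside and from 2.74 to 5.61 outside. The 3 amplified-only regions nearest to a native peak were JH431976 (276915 to 277093), AFFK01014949 (29020 to 29149) and AFFK01021719 (6290 to 6435). The first lay 10 bp from a native CopiaMBD3 peak of fold 5.43 and was itself a CopiaMBD3 peak of fold 3.37. The second lay 26 bp from a native CopiaMBD2 peak of fold 4.98 and had a CopiaMBD1 fold of 2.39. The third lay 34 bp from a native CopiaMBD2 peak of fold 4.65 and had a CopiaMBD1 fold of 3.81.

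Just outside the rule, AFFK01014466 (2101 to 2298), a CopiaMBD1 peak of fold 2.88, shared 5 bp with a native CopiaMBD3 peak of fold 7.14. JH430197 (5079 to 5215), a CopiaMBD2 peak of fold 4.34, shared 25 bp with a native CopiaMBD2 peak of fold 3.81, and JH430185 (29167 to 29314), with a CopiaMBD2 fold of 3.42, shared 31 bp with a native CopiaMBD3 peak of fold 6.15. Few regions sat this close to the edge: of the 449 amplified-only regions on a sequence with a native peak, 13 (2.90%) lay within 100 bp of one and 34 (7.57%) within 500 bp.

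Where a density could be measured, in the sequence between native regions, amplified-only regions had between 2.67 and 3.44 per Mb at every distance class from native binding. On sequences with a native peak the nearest one lay a median of 9162 bp away (interquartile range 1962 to 28927, n = 449). Of the 507 regions, 276 lay between a pair of native regions on the same sequence, in native-free gaps with a median length of 32266 bp, against 1145 bp for all such gaps. Long gaps hold more sequence, so the density per base was also computed. Among native-free bases between 0.1 and 1 kb from the nearest native peak there were 50 amplified-only regions in 14.7 Mb, or 3.40 per Mb (exact Poisson 95% interval 2.52 to 4.48). The density was 2.98 per Mb (2.33 to 3.77) at 1 to 5 kb, 3.31 (2.64 to 4.09) at 5 to 20 kb, 3.44 (2.54 to 4.54) at 20 to 50 kb and 2.67 (1.63 to 4.13) beyond 50 kb. All 5 intervals overlapped. These distances run from the midpoint of a region, and the densities rest on 274 of the 507 regions. The other 233 were left out: 173 beyond the outermost native regions of their sequence, 58 on sequences with no native peak, and 2 with a midpoint under 100 bp from a native peak.

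Each domain showed a similar course. CopiaMBD1 had 2.24, 2.09, 2.26, 2.31 and 1.74 regions per Mb in the 5 distance classes from near to far. CopiaMBD2 had 0.544, 0.511, 0.506, 0.701 and 0.535 per Mb. CopiaMBD3 had 0.816, 0.554, 0.779, 0.631 and 0.401 per Mb, the lowest value resting on 3 regions. Within each domain the intervals of all classes overlapped. CopiaMBD1, which had the longest amplified-DNA list, was above the other domains in each class. The densities were not recomputed at equal list lengths. Gaps of 100 kb or more made up 21.2% of the native-free bases and held 54 of the 276 regions, 19.6%.

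**Figure D2:**
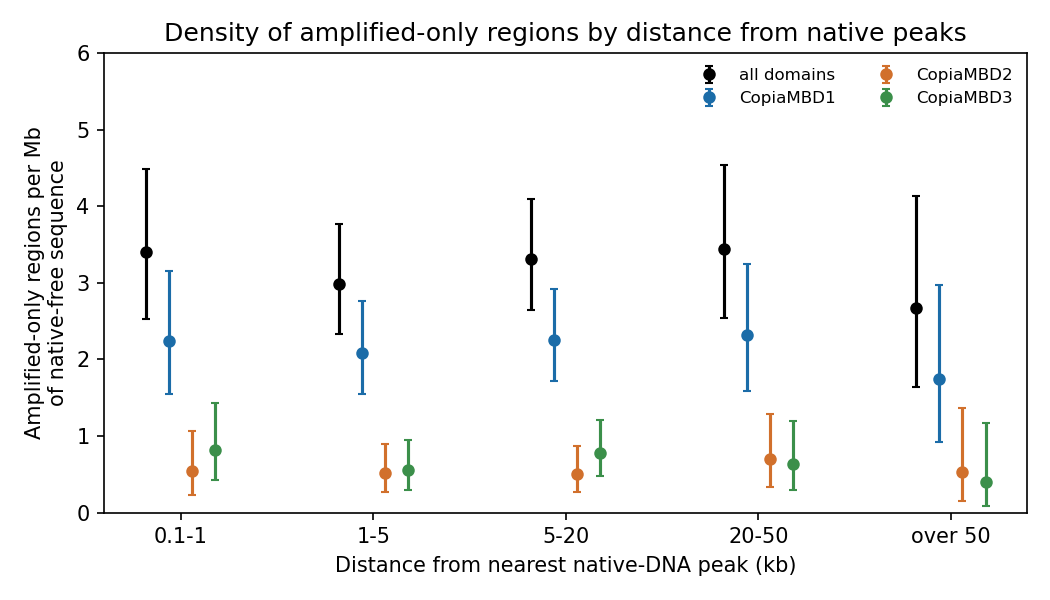
Amplified-only regions per Mb of native-free sequence (y axis) by distance from the nearest native-DNA peak in kb (x axis), over all domains (black) and for each domain. Points are densities over the 274 regions that lie between native regions, and bars exact Poisson 95% intervals for counting error. The black points lie between 2.67 and 3.44 per Mb with overlapping bars.

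Density was also set against the length of the sequence. Sequences were grouped by the length their peaks span, which runs to the last peak on the sequence because sequence lengths were not used here. Native regions fell from 739 per Mb on sequences under 10 kb to 245 at 10 to 100 kb, 76.8 at 100 to 500 kb and 42.5 per Mb at 500 kb or more. Amplified-only regions had 6.63 per Mb (5.10 to 8.49) on sequences under 10 kb, 3.86 (3.26 to 4.54) at 10 to 100 kb, 4.02 (3.48 to 4.62) at 100 to 500 kb and 3.52 (2.87 to 4.27) at 500 kb or more. The shortest class had 17.4 times the native density of the longest and 1.89 times its amplified-only density. The rule removes amplified-DNA regions where native peaks are dense, which by itself can flatten the amplified-only course. Over all 626 amplified-DNA regions, to which the rule was not applied, density was 11.2, 5.24, 4.36 and 3.76 per Mb in the same order, a ratio of 2.97. Between the 10 to 100 kb class and the longest the ratio was 5.76 for native regions, 1.39 for all amplified-DNA regions and 1.097 for amplified-only regions. Densities on the shortest sequences are raised for every kind of region, since a sequence without a peak does not enter and the span stops at the last peak. Amplified-DNA regions with a native peak fell from 4.53 to 0.241 per Mb, a course set in part by the rule, which takes them from places of native binding.

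**Figure D3:**
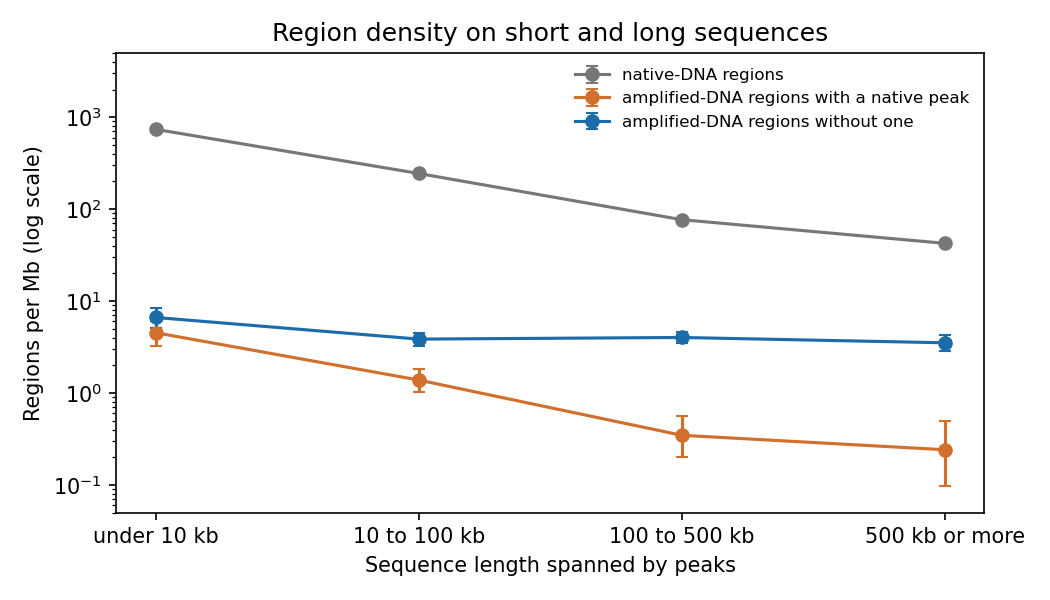
Regions per Mb on a log scale (y axis) against the length spanned by the peaks of a sequence (x axis), for native-DNA regions (grey), amplified-DNA regions with a native peak (orange) and amplified-only regions (blue). Bars are exact Poisson 95% intervals. The grey line falls from 739 to 42.5 per Mb while the blue line runs from 6.63 to 3.52.

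Sequences have JH names (scaffolds) or AFFK names (contigs), and their peaks spanned a median of 14570.5 bp on JH scaffolds and 948 bp on AFFK contigs, with AFFK spans of up to 203109 bp. AFFK contigs held 67 of the 507 amplified-only regions (13.2%, 10.4 to 16.5), against 17.4% of all 626 amplified-DNA regions. They held 42 of the 119 amplified-DNA regions with a native peak (35.3%, 26.8 to 44.6) and 35.4% of the 21205 merged native regions. A start within the first 1000 bp of a sequence was found for 6.11% of amplified-only regions, 26.9% of amplified-DNA regions with a native peak and 20.0% of native regions. The rule removes amplified-DNA regions where native peaks lie, so these contrasts are set in part by it and were not tested. By domain, AFFK contigs held 10.8% (7.54 to 15.0) of the regions of CopiaMBD1 alone, 13.5% (7.17 to 22.4) of CopiaMBD2 alone and 22.2% (14.5 to 31.7) of CopiaMBD3 alone.

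Sequences without any native peak carried 58 of the amplified-only regions, on 53 sequences. Of these 58, 31 lay on AFFK contigs and 27 on JH scaffolds. They made up 46.3% of all amplified-only regions on AFFK contigs and 6.14% of those on JH scaffolds. They included 8.14% of the regions of CopiaMBD1 alone, 16.9% of CopiaMBD2 alone and 16.2% of CopiaMBD3 alone, with overlapping intervals.

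The regions were not gathered on a few sequences. They fell on 338 sequences, 241 of which held 1 region, 59 held 2 and 38 held 3 or more. JH431446 and JH431683 each held 7. On JH431446, which has 7 native regions over a span of 837561 bp, the amplified-only regions ran from position 152277 to 837561 and included peaks of all 3 domains. On JH431683, with 8 native regions over 236227 bp, 6 of the 7 were CopiaMBD1 peaks and 1 was a CopiaMBD3 peak, with folds up to 5.61.

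JH432001 and JH432222 held 6 each. All 6 on JH432001 were CopiaMBD1 peaks, on a scaffold with 40 native regions. On JH432222, which had 13 native regions, 4 were CopiaMBD1 and 2 CopiaMBD2 peaks. JH431646, with 51 native regions, held 5, as did JH431850, JH432114 and JH432195. None of the scaffolds with 5 or more amplified-only regions held an amplified-DNA region that touched a native peak. On all sequences spanning at least 100 kb, 299 of 323 amplified-DNA regions (92.6%) lacked one.

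Neighbouring amplified-only regions were seldom close. The median distance between consecutive regions on one sequence was 59755 bp over 169 such pairs, and 7 pairs lay under 1000 bp apart. In 5 of the 7 the neighbours were called for different domains or pairs of domains. The same share over all 169 pairs was not computed, so this is not a trait of close neighbours. The closest were a CopiaMBD2 peak on JH431630 (30722 to 30922) and a CopiaMBD3 peak 151 bp further on (31074 to 31205).

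The 3 regions farthest from native binding lay in long stretches without it. JH431446 (464857 to 464992) was a CopiaMBD1 peak of fold 5.88, 293599 bp from the nearest native peak. JH432222 (703028 to 703206), a CopiaMBD1 peak of fold 2.89, and JH432222 (669340 to 669539), a CopiaMBD2 peak of fold 2.93, lay 276767 and 243079 bp away. On that scaffold 5 consecutive amplified-only regions, from 489224 to 703206, lay beyond the last native peak, which ended at 426260.

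Fold enrichment, the authors' ratio of fragments at the summit to the local HaloTag-only control, was modest and nearly equal between domains. The median over amplified-only peaks was 3.56 for CopiaMBD1 (interquartile range 2.89 to 4.28, n = 315), 3.53 for CopiaMBD2 (2.99 to 4.19, n = 100) and 3.43 for CopiaMBD3 (2.87 to 4.24, n = 116). At amplified-DNA peaks with a native peak the medians were 3.01 (n = 43), 3.56 (n = 33) and 3.59 (n = 53). The interquartile ranges of the members and of these peaks overlapped in each domain, and the difference was not tested. A fold of at least 5 was reached by 30 amplified-only CopiaMBD1 peaks (9.52%, against 9.22% of the whole list), 5 CopiaMBD2 peaks (5% against 6.77%) and 7 CopiaMBD3 peaks (6.03% against 5.92%). The shares were close to those of the whole lists.

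The 6 CopiaMBD1 regions with the highest fold lay on JH scaffolds. JH431516 (62775 to 62910) had the highest fold, 6.77, with a pileup of 26 fragments at the summit and a control level 1.09 times the lowest of its list. JH431584 (70104 to 70241) followed at 6.43, and JH430758 (769 to 915) at 6.22. JH431594 (10944 to 11142) reached 6.02, JH431446 (464857 to 464992) 5.88 and JH430447 (3194 to 3323) 5.87. The last of these is on a scaffold with no native peak, and the other 5 lay between 503 and 293599 bp from one. Below these came a CopiaMBD1 peak of fold 5.84 on scaffold JH432085, ahead of AFFK01019998 (4664 to 4811), a contig, at 5.82.

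CopiaMBD2 was led by JH431844 (12499 to 12654) at a fold of 6.68 with a pileup of 25. AFFK01005153 (644 to 824) had 5.83, AFFK01018194 (60 to 205) 5.78, JH432114 (746148 to 746284) 5.65 and JH432134 (34102 to 34240) 5.24. The sixth place was a tie at 4.88 between JH431109 (3069 to 3258), which was also a CopiaMBD1 peak, and JH431920 (44836 to 44981), which was not. Control levels at these regions were at most 1.38 times the lowest of the list.

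For CopiaMBD3, AFFK01017221 (1947 to 2076) had a fold of 6.97, the highest of all amplified-only peaks, with a pileup of 41. AFFK01020385 (18372 to 18505) followed at 5.65, JH431630 (31074 to 31205) at 5.61 and AFFK01004336 (241 to 378) at 5.48. JH431874 (71309 to 71443) reached 5.37 and JH431916 (230254 to 230404) 5.25. Of these 6, 3 lay on AFFK contigs, against none of the CopiaMBD1 leaders and 2 of the CopiaMBD2 leaders. Over all amplified-only peaks, AFFK contigs held 33 of 315 for CopiaMBD1, 12 of 100 for CopiaMBD2 and 23 of 116 for CopiaMBD3. Sets of 6 are too small to set the domains apart. Of all these leading regions, JH431109, which holds its place by a tie, was the one called for a second domain. Among all 507 regions, 4.73% were called for a pair.

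The q-value picks out a partly different set, because a high pileup over a high control can reach a small q at a low fold. There were 22 amplified-only regions with a −log10 q of 10 or more, 15 of CopiaMBD1 (4.76%, against 5.31% of its list), 2 of CopiaMBD2 (2% against 3.01%) and 5 of CopiaMBD3 (4.31% against 6.51%). None of the 22 was called for a second domain (exact upper limit 15.4%), a share whose interval includes the 4.73% of all amplified-only regions that were. AFFK contigs held 8 of them (36.4%, 17.2 to 59.3), and 6 (27.3%, 10.7 to 50.2) lay on contigs with no native peak at all. Among the other 485 regions the shares were 12.2% (9.39 to 15.4) on AFFK contigs and 10.7% (8.11 to 13.8) on sequences without a native peak. Amplified-DNA regions with a native peak that reached this level also lay mostly on AFFK contigs. Examples are AFFK01010709 at a −log10 q of 23.1 and, on a scaffold, JH431862 at 22.3. A high share on AFFK contigs was therefore not particular to strong amplified-only regions.

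The smallest q belonged to CopiaMBD1 at AFFK01003104 (825 to 973), with a −log10 q of 21.1, a fold of 5.44 and 64 fragments over a control level of 3.99 times the lowest. CopiaMBD3 at AFFK01017221 came next with a −log10 q of 18.3. JH431031 (282 to 413), a CopiaMBD3 peak, reached 15.7 at a fold of 3.60. Both AFFK contigs carried no native peak.

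Other CopiaMBD1 regions past this level were JH431663 (51403 to 51572) at a −log10 q of 14.2, JH431388 (111894 to 112055) at 13.98, AFFK01009238 (720 to 854) at 13.5, JH431739 (224638 to 224772) at 13.4 and AFFK01011578 (1029 to 1180) at 12.9. JH432211 (244211 to 244343) reached 12.2, JH430884 (213543 to 213679) 11.2 and AFFK01019998 (4664 to 4811) 10.5. JH431711 (5723 to 5852) and JH432195 (64278 to 64407) both had 10.3. Of CopiaMBD3, JH430806 (1975 to 2104) had 11.7 and AFFK01003097 (834 to 963) had 10.4. The rest of the 22 are among the leaders by fold, with −log10 q from 10.6 to 12.9. JH430884, JH430806, JH431031 and AFFK01003097 had folds of only 2.73, 3.22, 3.60 and 2.33, with control levels from 7.69 to 17.7 times the lowest.

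At the weak end, a −log10 q under 2 was found for 5.08% of the amplified-only CopiaMBD1 peaks (against 6.42% of the whole list), 8% of those of CopiaMBD2 (6.02%) and 12.9% of those of CopiaMBD3 (13.6%). At amplified-DNA peaks with a native peak the shares were 16.3, 0 and 15.1%, on 43, 33 and 53 peaks. The median −log10 q of the amplified-only peaks was 4.15, 3.76 and 3.65. It was 4.61, 4.18 and 4.09 at amplified-DNA peaks with a native peak, a difference that was not tested. The authors' threshold was a q-value of 0.05, and part of each list can be chance calls at that threshold.

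The caller's local HaloTag-only control level for the summit, recovered from pileup and fold, was above its lowest value at most amplified-only peaks. The lowest value in the lists was 2.75, 2.89 and 2.61 fragments for CopiaMBD1, CopiaMBD2 and CopiaMBD3, and the mean coverage computed from tags, fragment length and effective genome size was 2.76, 2.91 and 2.61. The lowest control level is therefore a floor close to the genome-wide mean, and HaloTag-only coverage below that floor would not show in it. Relative to it, the median at amplified-only peaks was 2.17, 1.72 and 1.92, and at amplified-DNA peaks with a native peak it was 2.90, 2.36 and 2.31. Levels 3 or more times the lowest stood at 80 of 315 amplified-only CopiaMBD1 peaks (25.4%, against 28.2% of the list), 19 of 100 CopiaMBD2 peaks (19% against 21.8%) and 28 of 116 CopiaMBD3 peaks (24.1% against 28.4%). Amplified-DNA peaks with a native peak had 48.8, 30.3 and 37.7%. The part of control coverage in these calls was not tested.

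**Figure D4:**
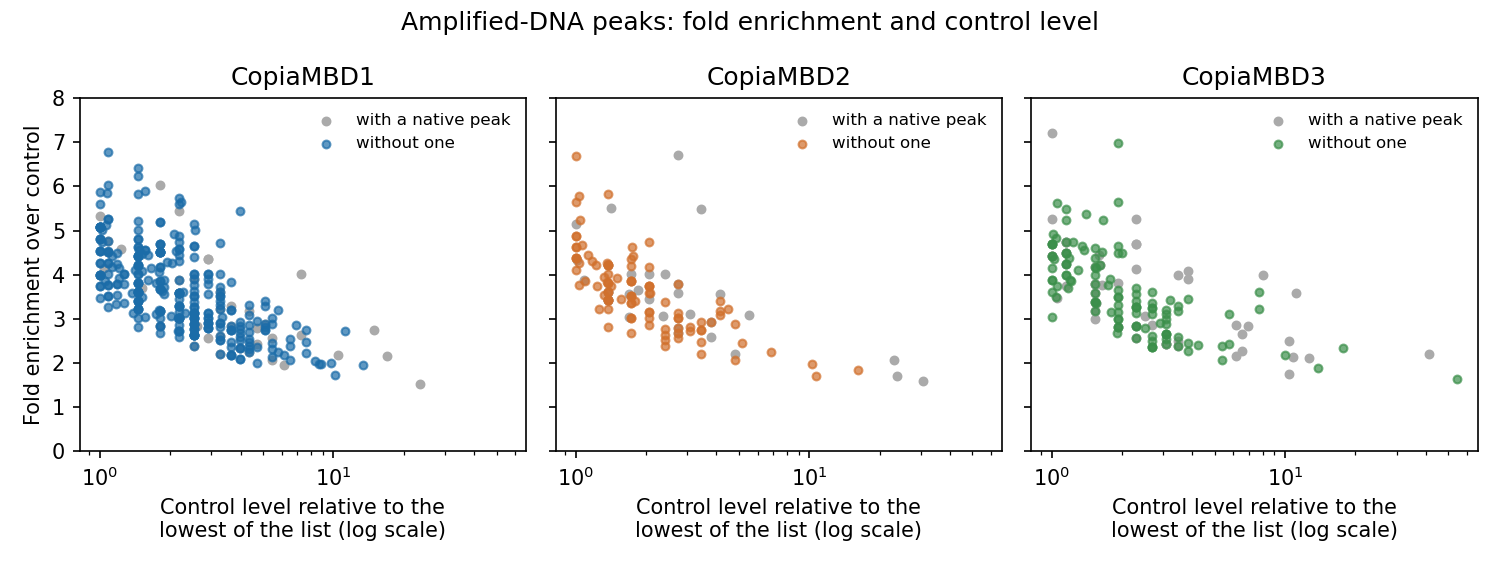
Fold enrichment (y axis) against the caller's local HaloTag-only control level, as a multiple of the list's lowest (x axis, log scale), for amplified-DNA peaks of each domain, without a native peak (coloured) and with one (grey). High folds sit at low control levels, as fold is a ratio to that level, and the rightmost coloured point is the CopiaMBD3 peak at 54.6 times the lowest.

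The highest control levels were on AFFK contigs with no native peak. AFFK01003075 (521 to 674) was a CopiaMBD3 peak with 235 fragments over a control of 54.6 times the lowest, and its fold was 1.64, the smallest among amplified-only peaks. AFFK01003097 (834 to 963) had a CopiaMBD3 fold of 2.33 at 17.7 times the lowest, and AFFK01001286 (140 to 297) a CopiaMBD2 fold of 1.84 at 16.2 times. At the other end, 45 CopiaMBD1, 16 CopiaMBD2 and 16 CopiaMBD3 peaks stood under 1.1 times the lowest level. Their median folds were 4.54, 4.63 and 4.39 on median pileups of 17, 17 and 15 fragments. Among them, AFFK01018103 (33965 to 34110) had a CopiaMBD3 fold of 4.71, JH431527 (216976 to 217150) a CopiaMBD1 fold of 3.74, and JH431702 (39308 to 39514) folds of 4.54 for CopiaMBD1 and 4.11 for CopiaMBD2.

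Median fold near and far from native peaks differed in direction between domains. Within 1 kb of a native peak the median fold was 3.50 for CopiaMBD1 (n = 42), 3.42 for CopiaMBD2 (n = 11) and 3.89 for CopiaMBD3 (n = 19). Beyond 10 kb it was 3.41 (n = 139), 3.73 (n = 41) and 3.19 (n = 51). On sequences with no native peak it was 3.71 (n = 26), 3.35 (n = 17) and 3.57 (n = 18). CopiaMBD3 thus had the higher median near native peaks and CopiaMBD2 the lower. For CopiaMBD3 the median −log10 q was 4.59 within 1 kb and 3.03 beyond 10 kb. The interquartile ranges overlapped, and none of these differences was tested.

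Amplified-only regions were narrow. Their median width was 149 bp (interquartile range 137 to 171.5), against 148 bp for amplified-DNA regions with a native peak and 214 bp for merged native regions. The shortest peak the caller reports is set by its fragment length, 130 bp for CopiaMBD1 and CopiaMBD3 and 137 bp for CopiaMBD2. Peaks within 5 bp of that minimum made up 27.9, 25 and 29.3% of the amplified-only peaks of the 3 domains. AFFK01000528 (677 to 806), AFFK01003097 (834 to 963) and AFFK01014267 (11163 to 11292), all CopiaMBD3 peaks, were 130 bp long. The widest regions were JH431968 (369633 to 369988) at 356 bp, JH431665 (127884 to 128208) at 325 bp and JH432185 (56010 to 56330) at 321 bp, each merged from peaks of a pair of domains.

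The 24 regions called for a pair of domains were 4.73% (3.06 to 6.96) of the 507, against 5.43% of all 626 amplified-DNA regions. CopiaMBD1 and CopiaMBD3 shared 13, CopiaMBD1 and CopiaMBD2 shared 7, and CopiaMBD2 and CopiaMBD3 shared 4. They took up 6.35% of the amplified-only peaks of CopiaMBD1, 11% of those of CopiaMBD2 and 14.7% of those of CopiaMBD3. All but 1 of the 24 lay on JH scaffolds. The AFFK share of 4.17% (0.105 to 21.1) has an interval that includes the 13.2% of all 507 regions. Of the 21 with a native peak on their sequence, the nearest lay a median of 12420 bp away.

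A pair is defined by overlapping peaks, so its peaks are close by the way it was chosen. The summits were a median of 18 bp apart (range 3 to 117) and within 50 bp in 15 of the 24, and the peaks shared 64 to 191 bp. The higher fold was a median of 1.13 times the lower, at most 1.74 times, and 16 pairs were within 1.3 times. Spearman's rho of the folds was 0.66 across the 24 regions, and that of the relative control levels 0.87, both given as a description since each pair shares its control library and the control level enters both folds. CopiaMBD1 had the higher fold in 6 of 7 regions shared with CopiaMBD2 and in 4 of 13 shared with CopiaMBD3.

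Regions called for a pair were not the strongest. Their median folds were 3.53 for CopiaMBD1, 3.13 for CopiaMBD2 and 3.56 for CopiaMBD3, against 3.58, 3.58 and 3.42 at regions of a single domain. JH431109 (3069 to 3258) led with folds of 5.07 for CopiaMBD1 and 4.88 for CopiaMBD2, each from 18 fragments over the lowest control level. JH431734 (698252 to 698396) had 4.74 for CopiaMBD1 and 4.35 for CopiaMBD3, and JH431702 (39308 to 39514) is given above. JH431849 (73944 to 74179) had 4.06 for CopiaMBD1 and 4.52 for CopiaMBD3, with summits 4 bp apart.

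Further down, JH431968 (369633 to 369988) had 4.01 for CopiaMBD1 and 3.95 for CopiaMBD2. JH431829 (73557 to 73741) had 3.76 for CopiaMBD1 and 4.93 for CopiaMBD3, 285 bp from a native peak. JH431603 (288774 to 288955) had 3.56 and 4.50, JH431998 (182928 to 183074) 4.02 and 3.56, and AFFK01014663 (2006 to 2226) 3.54 and 4.10 for the same domains. JH429599 (6860 to 7005) had 3.17 for CopiaMBD2 and 3.29 for CopiaMBD3. JH432085 (301779 to 301930) had 3.14 for CopiaMBD1 and 4.22 for CopiaMBD3, and JH431878 (578520 to 578699) had 3.52 for CopiaMBD1 and 3.13 for CopiaMBD2. In the other 12 the lower fold ran from 1.88 to 3.01.

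**Figure D5:**
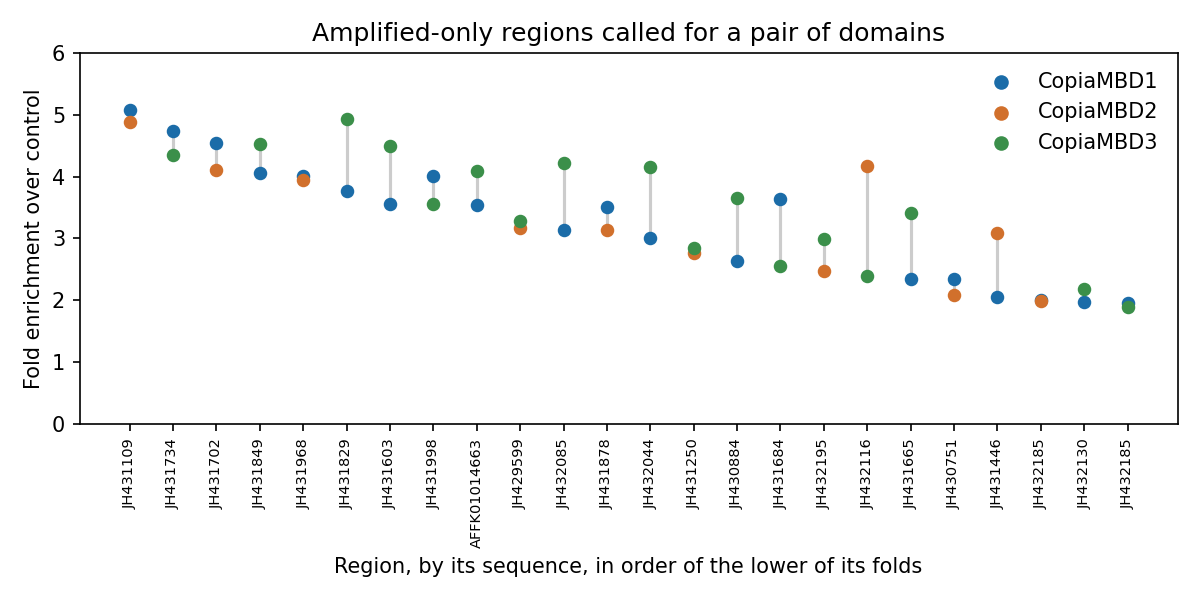
Fold enrichment over the HaloTag-only control (y axis) of both peaks in each of the 24 amplified-only regions called for a pair of domains, ordered by the lower fold and named by sequence (x axis). A grey line joins the peaks of a region. Folds run from 1.88 to 5.07, and the peaks of a region differ by at most 1.74 times.

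Of the 24 regions, 10 had a control level 3 or more times the lowest in at least 1 list, and 14 stayed under it in both. The 10 are 41.7% of the pairs, against 23.7% (120) of all 507 regions, although a pair enters with a level from each of 2 lists and a region of a single domain with 1. The weakest pairs had the highest levels. On JH432185 a pair of such regions lay 343 bp apart, at 55502 to 55666 for CopiaMBD1 and CopiaMBD2 and at 56010 to 56330 for CopiaMBD1 and CopiaMBD3, with folds of 1.88 to 2.01 over control levels of 9.78 to 13.8 times the lowest. JH432130 (227078 to 227284) had folds of 1.97 and 2.18 at 8.70 and 9.996 times the lowest. The part of control coverage in these shared calls was not tested.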

How the data were processed

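Per the file headers, the authors ran MACS2 (2.1.0.20150731) on each library with a q-value threshold of 0.05. Each domain was compared with the HaloTag-only library of the same kind of DNA, the library with more tags was thinned to the size of the other, positions counted 1 tag each, and local control was taken over 1 and 10 kb with an effective genome size of 173599458 bp. The deposited pileup is a coverage signal at the summit, the deposited fold enrichment its ratio to the local control, and the caller's −log10 p and −log10 q were deposited beside them. The submitters' processing notes list BS-Seeker2, Bowtie, Bowtie2, CASAVA 1.8.2 and fastp as well. No label or header states the genome build, so positions are 1-based as in the files and no sequence or annotation is shown. The MethylC-seq sample was not used here.

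Sample titles gave the groups. Merging, overlap and distance were computed with Python 3.11.15, numpy 2.4.6 and pandas 2.3.3 and tested on simulated intervals against base-by-base counting. Shares carry exact Clopper-Pearson and densities exact Poisson 95% intervals (scipy 1.17.1). The floor for a count of 0 was 3 counts. The labels name no molecular identifiers, so reads need not be independent molecules and intervals cover counting error only. Control level was (pileup + 1) / fold − 1. Plots used matplotlib 3.10.9. Regions were named by a rule on fold, q-value, pairs, distance, control level, width and sequences with most regions. The members, lists and classes were chosen with earlier results of these data known. Alternatives changed the q-value, fold, overlap, merging, control level, sequences and libraries.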

Additional observations from a re-analysis of the deposited data

How the results depend on the processing

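The 507 regions, the 24 called for a pair of domains, the 13.2% on AFFK contigs, the median distance of 9162 bp and the median fold of 3.52 were recomputed under 17 alternatives, the last of which, equal list lengths, was chosen after seeing the data. With a −log10 q of at least 5 they became 167 regions, 3 in pairs, 7243 bp and a fold of 4.52, and with a fold of at least 4 they became 171, 4, 7021.5 bp and 4.53. Native peaks limited to a −log10 q of at least 5 gave 12327 bp. Control levels under 3 times the lowest left 14 in pairs and a fold of 3.81. Sequences of at least 100 kb held 299 regions, 0.669% on AFFK contigs, at 16105 bp. Equal list lengths gave 302 regions, 7 in pairs and a fold of 3.89. These shifts follow from which peaks enter. Leaving out 1 library at a time gave 212 to 522 regions, 4 to 25 in pairs, 11.0 to 16.5% on AFFK contigs, 9048.5 to 12663 bp and folds of 3.49 to 3.54. The lowest of these counts, 212 and 4, came without the CopiaMBD1 amplified library. Without the CopiaMBD2 amplified library 13 were in pairs, and without that of CopiaMBD3, 7. The share of amplified-DNA regions without a native peak ran from 72.4 to 92.6% over all 17. No paired analysis was possible because each group held 1 library. Native lists rest on fewer tags, which limits what the absence of a native peak shows, and the depth of other positions in these libraries is unknown here. The CpG ratio planned for a genome of the same build was not run.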
